A study of Homo sapiens with 4 samples.

Results

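The spliceosome cuts introns out of pre-mRNA and joins the exons. It is built on every intron from small nuclear ribonucleoproteins (snRNPs), each a short RNA with its proteins: U1 pairs with the 5′ splice site, U2AF and the U2 snRNP take the 3′ end of the intron and the branch point, and the tri-snRNP of U4, U6 and U5 then joins. The PRP19 complex steadies the active form and DEAH helicases drive its changes of shape. The core spliceosome was examined here as 48 genes for snRNP proteins, SF3 and U2AF subunits, PRP and LSM proteins and their helicases. They were taken by symbol from a list of its known proteins, and all 48 of them were measured, among 16634 genes tested.

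The RNA came from A2780/SRSF3si2, which derives from the ovarian cancer line A2780 and makes an siRNA against SRSF3 when doxycycline (Doxy) is present. SRSF3 is an SR protein, one of the factors that bind exons and help the core spliceosome to choose splice sites. Cells were grown for 3 days with 0.1 μg/ml Doxy or without it (No Doxy), in the same medium otherwise, and 2 Affymetrix human exon arrays were run for each group. The sources used here do not say whether the subline is 1 clone. Arrays of a subline with an siRNA that does not target SRSF3 were not used here, so an effect of Doxy itself cannot be told apart from that of the siRNA. No source used here says whether the arrays of a group stem from cultures grown apart, so each p-value covers the scatter of these 4 arrays alone, and that scatter may be technical.

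The values are log2 signals of probe sets, each of which reads 1 exon or part of one, and a gene value is the mean over the probe sets of the gene. A difference of 1 on this scale is a 2-fold change, differences are Doxy minus No Doxy, and a gene is said to have risen or fallen where limma gave an adjusted p under 0.05 (Benjamini-Hochberg over all genes tested). Gene values correlated across genes with r = 0.988 between the Doxy arrays and 0.987 between the No Doxy arrays, against 0.969 to 0.972 between the groups. The array medians were 5.18 and 5.38 for Doxy replicates 1 and 2, and 5.20 and 5.04 for No Doxy replicates 1 and 2. How the arrays were scaled to each other before deposit is not given in full in the sources used here, and centring each array on its median changed the median difference of all genes to -0.127, against 0.035 as deposited. SRSF3 itself, on 8 probe sets, had 7.84 and 7.97 in the Doxy arrays, against 8.50 and 8.33 in the No Doxy arrays. The SRSF3 difference was therefore -0.51 (standard error, SE, 0.18, limma adjusted p = 0.129). It did not pass the test as deposited but did with centred arrays (-0.67, limma adjusted p = 0.0376) and after a further quantile normalization (-0.64, adjusted p = 0.0474). These were the only 2 of the 16 alternatives listed below in which SRSF3 passed. With the median of its probe sets as the gene value the difference was -0.21 (limma adjusted p = 0.71).

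Markers of the cell type were read on the same arrays. The ovarian marker PAX8 had 4.76 and 4.82 with Doxy and 4.68 and 4.34 without, under the median of its own array in every case, and the mesenchymal filament gene VIM had 10.6 and 10.6 with Doxy and 10.0 and 9.69 without. The list of ovarian or epithelial markers also held the mesenchymal genes VIM and CDH2, and 9 of its genes were measured. The 2 that rose were EPCAM (by 2.10) and CDH1 (by 0.93), and 4 lay below 0. Of those 4, KRT19 (-0.81, limma adjusted p = 0.0759), KRT8 (-0.38) and CDH2 (-0.20) were lower in both Doxy arrays but did not pass. CDH2 is not an epithelial marker, and its values were low (3.19 to 3.49). Of the 5 fibroblast markers LUM rose, by 0.79, while DCN had 9.24 and 9.11 with Doxy and 9.26 and 9.25 without, and 0 of 3 leukocyte and 0 of 5 endothelial markers passed. The mean of the leukocyte markers was 3.13 and 3.03 in the Doxy arrays against 2.98 and 2.96 in the No Doxy arrays, that of the endothelial markers 3.37 and 3.26 against 3.37 and 3.38, and that of the fibroblast markers 6.61 and 6.64 against 6.42 and 6.32. The part of these marker changes in the results on the spliceosome was not tested. In bulk RNA, fewer cells of a type and less RNA per cell cannot be told apart.

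Most core spliceosome genes did not pass the test in either direction. Of the 48, 3 rose with Doxy, namely PRPF38A, DHX38 and SNRNP70, and 0 fell. Among all genes tested 5.67% rose and 1.7% fell, so 3 of 48 (6.25%) is near the share of all genes. All 48 had a level above the median gene level, and among the 8317 genes at or above it 9.92% rose. At an unadjusted p under 0.05, 10 of the 48 were higher (20.8%) and 4 lower (8.33%), where 16.5% and 6.66% of all genes and 27.3% and 7.65% of the genes at or above the median level were. The median difference of the 48 was 0.13, against 0.03 over all genes tested and 0.19 over the genes at or above the median level, and single members ran from -0.68 in SF3A3 to 1.37 in PRPF38A. In 16 genes both Doxy arrays lay above both No Doxy arrays and in 8 both lay below, where 30.5% and 21.8% of all genes did. Of the 8317 genes at or above the median level, 3775 lay above and 1355 below in this way. The 95% interval of the difference stayed within a 2-fold change in either direction for 32 of the 48 genes, and for the other 16 a change of that size was not excluded at this number of arrays.

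**Figure D1:**
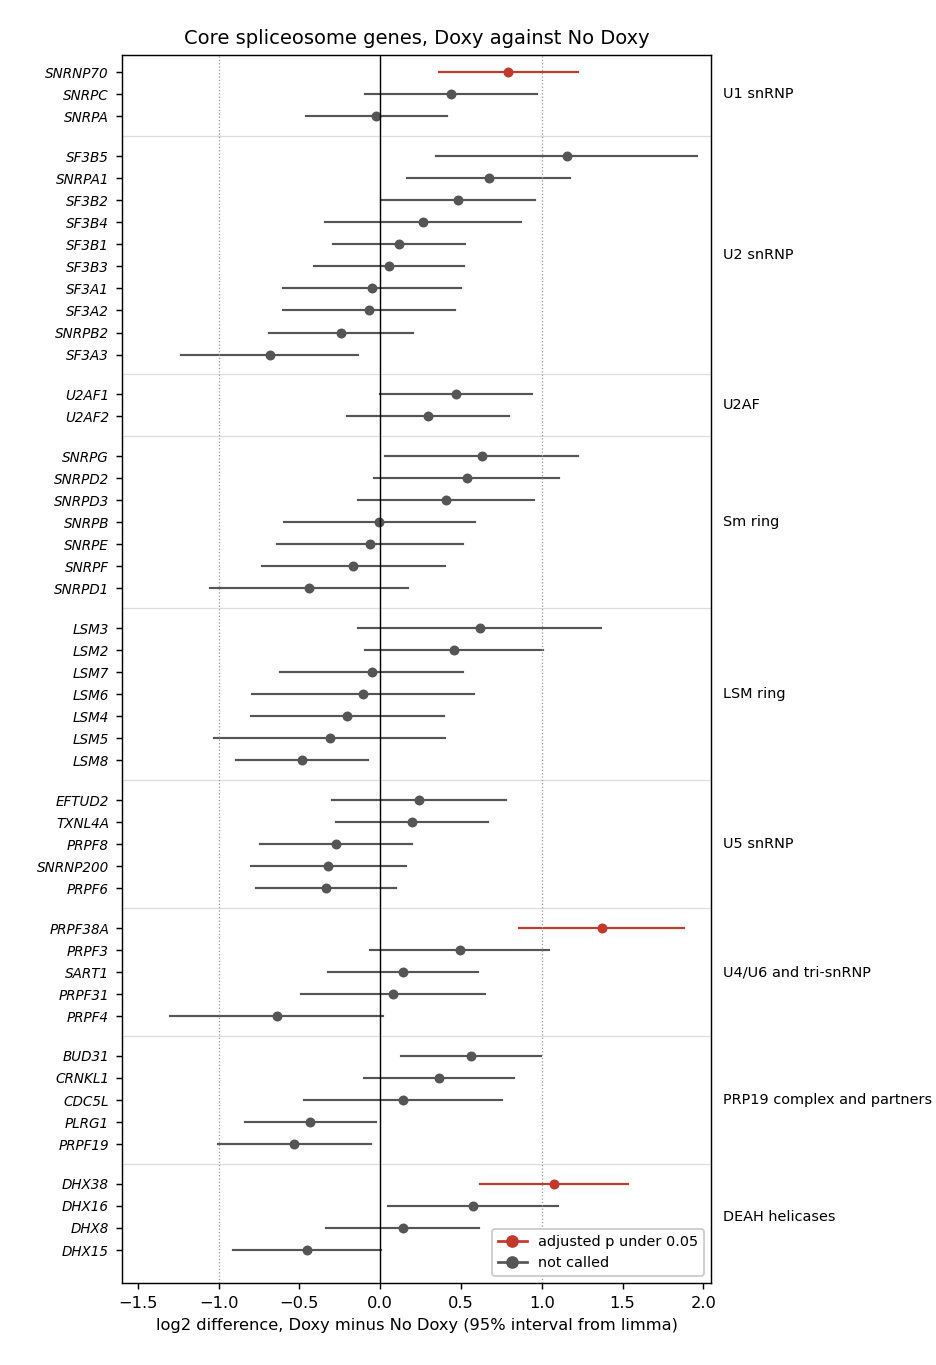
Log2 difference, Doxy minus No Doxy, of each of the 48 genes (points) with its 95% interval from limma (bars), ordered within the parts of the spliceosome named at the right. The 3 genes that passed the test, PRPF38A, DHX38 and SNRNP70, are in red and all lie above 0, and the dotted lines mark a 2-fold change.

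With each array centred on its median the split was 3 higher (PRPF38A, DHX38 and SF3B5) and 3 lower (SF3A3, PRPF4 and PRPF19), and the median of the 48 was -0.035 where that of all genes was -0.127. Over all genes the same centring gave 918 higher (5.52%) and 954 lower (5.74%), against 943 and 282 as deposited. The sign of the members' median, and whether any member is called lower, thus depended on the scale.

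The promoters of the 3 genes that rose, and of SF3A3, the member with the lowest difference, are shown to compare what lies just before their starts. Each is the 100 bases before the start of the gene in RefSeq on GRCh38.p14, on the strand of the gene, at chr1:52404502-52404601 (plus strand) for PRPF38A, chr16:72093747-72093846 (plus) for DHX38, chr19:49085351-49085450 (plus) for SNRNP70 and chr1:37990023-37990122 (minus) for SF3A3. Capitals mark a match to the ETS motif CCGGAAG or to the CCAAT box CCAAT, searched on both strands like the TATA box, so that CTTCCGG and ATTGG are the same motifs read from the other strand. The 3 motifs share no position with each other in these 4 windows.
PRPF38A: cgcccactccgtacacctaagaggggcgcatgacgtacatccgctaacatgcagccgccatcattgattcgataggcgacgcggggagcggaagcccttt
DHX38: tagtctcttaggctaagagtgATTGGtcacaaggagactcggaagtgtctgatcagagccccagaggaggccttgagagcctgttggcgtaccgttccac
SNRNP70: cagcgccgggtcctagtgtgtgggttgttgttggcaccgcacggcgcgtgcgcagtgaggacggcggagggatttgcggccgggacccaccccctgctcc
SF3A3: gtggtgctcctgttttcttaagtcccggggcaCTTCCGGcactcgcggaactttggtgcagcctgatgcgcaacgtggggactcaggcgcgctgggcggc

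The 3 genes that rose shared none of the motifs searched in these windows. DHX38 held a CCAAT box, while PRPF38A and SNRNP70 held none of the motifs searched. Of the 48 members 44 matched a promoter. The ETS motif was in 15 of those (34.1%), against 8.07% of 15842 promoters of protein-coding genes. The CCAAT box was in 12 (27.3%, against 21%) and the TATA box TATAAA in 0, against 5.47%. A match here describes letters, not a bound site, and the shares were not tested.

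U1, the snRNP that first meets the 5′ splice site, had 1 of its 3 protein genes called. SNRNP70 encodes U1-70K, which binds U1 RNA and is a contact for SR proteins at the 5′ splice site. Its gene value was 8.32 and 8.57 in the Doxy arrays, against 7.57 and 7.73 in the No Doxy arrays, with no overlap. The difference was 0.79 (SE 0.19, limma adjusted p = 0.0430), a 1.73-fold rise. Of its 14 probe sets 10 were higher in both Doxy arrays and 1, probe set 3838224, was lower in both (-0.18). Its adjusted p was the highest of the 3 called genes. With centred arrays the difference was 0.63 (limma adjusted p = 0.0582), which did not pass. Leaving out 1 array at a time gave differences from 0.665 to 0.921. The call was kept in none of these fits, some of which called no gene at all. SNRPC, which steadies the pairing of U1 with the splice site, had 7.30 and 7.80 with Doxy and 7.29 and 6.93 without (0.44, adjusted p = 0.310). SNRPA, which binds a stem-loop of U1 RNA, differed by -0.02 (95% interval from -0.46 to 0.41).

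The U2 snRNP, which holds the branch point, was the largest group, and 0 of its 10 genes passed the test. Its values lay on both sides of 0, with a median of 0.09, and its 2 largest differences ran in opposite directions. SF3B5, a small subunit of SF3b, had 6.84 and 7.36 in the Doxy arrays, against 6.50 and 5.40 in the No Doxy arrays. The difference of 1.15 (SE 0.35, adjusted p = 0.0910) rests on 2 probe sets, and the No Doxy arrays lay further apart than the Doxy arrays. With centred arrays SF3B5 was called, as it was without the genes below the median level. SF3A3, a subunit of SF3a, had 8.18 and 8.84 with Doxy, against 9.18 and 9.20 without, a difference of -0.68 (SE 0.24, adjusted p = 0.128). Both Doxy arrays were below the No Doxy arrays for 16 of its 19 probe sets, and the differences of all 19 were below 0 (-1.0 to -0.37). Here and in the other genes, probe sets are read on the same arrays and are not replicates, so such counts are a description. Of all probe sets with 1 symbol, 26.4% were higher in both Doxy arrays and 19.0% lower.

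SNRPA1, a protein particular to U2, had 6.91 and 7.23 in Doxy arrays and 6.17 and 6.62 in No Doxy arrays (0.67, adjusted p = 0.110), while its partner on U2 RNA, SNRPB2, differed by -0.24. The difference between those 2 genes was not tested. SF3B2, another SF3b subunit, was above 0 in the same way (0.48, adjusted p = 0.207), with 18 of its 26 probe sets higher in both Doxy arrays. The other 5 genes of U2 did not pass either, and their arrays overlapped. SF3B1, the subunit that contacts the branch point and is mutated in some cancers, differed by 0.12 (95% interval from -0.29 to 0.52) on 30 probe sets, SF3B3 by 0.06, SF3B4 by 0.26, SF3A1 by -0.05 and SF3A2 by -0.07.

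U2AF reads the end of the intron, with U2AF1 at the AG and U2AF2 on the pyrimidine tract. U2AF1 had 8.08 and 8.42 with Doxy and 7.62 and 7.93 without (0.47, adjusted p = 0.215). U2AF2 had 7.15 and 7.54 with Doxy and 7.23 and 6.86 without (0.30, adjusted p = 0.488). The arrays of the 2 groups did not overlap for U2AF1 and did for U2AF2.

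The Sm proteins form the ring around the RNA of each snRNP other than U6, and the LSM ring takes that place on U6. In the Sm ring 0 of 7 genes passed, with a median of -0.00 and differences from -0.44 in SNRPD1 to 0.63 in SNRPG. SNRPG had 6.84 and 7.60 with Doxy and 6.52 and 6.67 without (adjusted p = 0.193), and SNRPD2 had 7.04 and 7.34 against 6.98 and 6.33 (0.54, adjusted p = 0.248). Both groups of arrays were thus separate in these 2 genes, and also in SNRPD3 (0.41), but not in SNRPB, SNRPE, SNRPF or SNRPD1. In the LSM ring 0 of 7 passed at the gene level, with a median of -0.10. LSM8, the ring's member found in the nuclear ring but not in the cytoplasmic one, had 7.56 and 7.39 in the Doxy arrays, against 8.01 and 7.90 in the No Doxy arrays (-0.48, adjusted p = 0.147). LSM2 had 5.68 and 6.30 with Doxy and 5.66 and 5.40 without (0.46, limma adjusted p = 0.306), and LSM3, LSM4, LSM5, LSM6 and LSM7 had overlapping arrays and differences from -0.31 to 0.62. The 0.62 is that of LSM3 and rests on 1 of its 6 probe sets, with a difference of 3.62. The median difference of the LSM3 probe sets was -0.07.

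In the U5 snRNP, which carries the centre of the spliceosome, 0 of 5 genes passed, and the 3 below 0 were PRPF8, SNRNP200 and PRPF6. PRPF6, which bridges U5 and U4/U6, had 6.41 and 6.68 with Doxy and 6.96 and 6.80 without (-0.34, adjusted p = 0.342). SNRNP200, the helicase that unwinds U4 from U6, had 7.71 and 8.17 with Doxy and 8.33 and 8.19 without (-0.32, adjusted p = 0.422). PRPF8, the scaffold of the catalytic centre, differed by -0.28 (95% interval from -0.74 to 0.19), with 25 of its 49 probe sets lower in both Doxy arrays and 1 higher. EFTUD2, the GTPase of U5, differed by 0.24 and TXNL4A by 0.20.

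PRPF38A had the largest difference of all members. It joins the spliceosome as the tri-snRNP is made ready for activation. Its gene value was 8.68 and 9.24 in the Doxy arrays, against 7.53 and 7.64 in the No Doxy arrays, a gap wider than the spread within either group. The difference was 1.37 (SE 0.22, limma adjusted p = 0.0170), a 2.59-fold rise, and 15 of its 16 probe sets were higher in both Doxy arrays, with differences from 0.46 to 2.21. With centred arrays it was 1.21 (adjusted p = 0.000503). Leaving out 1 array at a time gave differences from 1.09 to 1.65. Among these fits the PRPF38A call was kept only without Doxy replicate 1, and some of the other fits called no gene at all. PRPF38A did not pass with the median of the probe sets as the gene value (limma adjusted p = 0.0911), where 0.986% of all genes were called higher.

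None of the other 4 genes of U4/U6 and the tri-snRNP passed the test. PRPF4, a U4/U6 protein, had 6.90 and 7.81 with Doxy and 7.96 and 8.02 without. Its difference of -0.64 (SE 0.28, adjusted p = 0.229) did not pass, and the Doxy arrays lay further apart than the No Doxy arrays. PRPF3, which binds PRPF4, was above 0 by 0.49 (adjusted p = 0.272), and PRPF31 and SART1 differed by 0.08 and 0.14 with overlapping arrays.

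**Figure D2:**
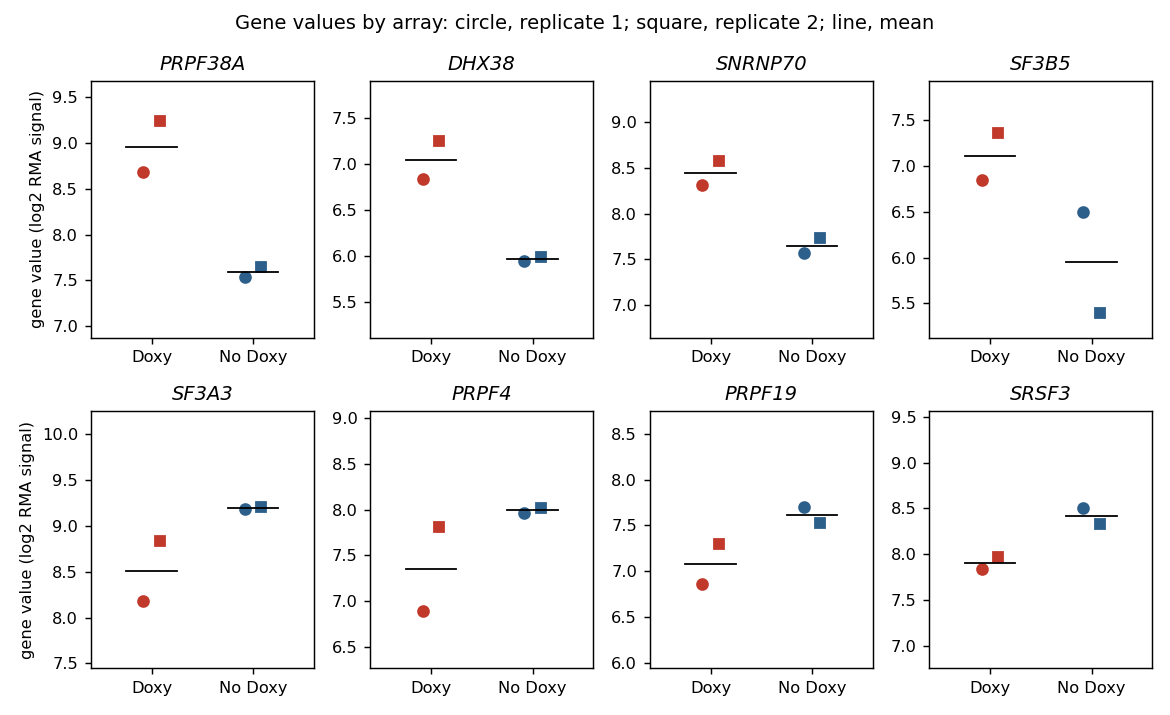
Gene value (log2 signal, each axis with its own range) of 8 genes in the 2 Doxy arrays (left in each plot) and the 2 No Doxy arrays (right), with a line at the mean of the group. PRPF38A, DHX38 and SNRNP70 passed the test, the other genes did not, and the No Doxy arrays of SF3B5 and the Doxy arrays of PRPF4 lie far apart.

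The PRP19 complex and its partners had 0 of 5 genes called, with values on both sides of 0. BUD31, a small protein of the activated spliceosome, had 7.53 and 7.34 in the Doxy arrays, against 7.01 and 6.74 in the No Doxy arrays (0.56, adjusted p = 0.118). PRPF19, the ubiquitin ligase of the complex, had 6.87 and 7.30 with Doxy, against 7.70 and 7.52 without (-0.53, adjusted p = 0.168), with 13 of 19 probe sets lower in both Doxy arrays. PLRG1, a core protein of the same complex, had a difference of -0.43 (adjusted p = 0.188), and in 15 of its 16 probe sets both Doxy arrays were below both No Doxy arrays. Neither gene passed, so the agreement of their probe sets, which are read on the same arrays and are not independent, is given as a description. CRNKL1 differed by 0.36 and CDC5L by 0.14.

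The DEAH helicases each drive a step of the splicing cycle, and 1 of the 4 rose. DHX38, the human PRP16, remodels the spliceosome between the chemical steps. It had 6.84 and 7.25 in the Doxy arrays, against 5.95 and 5.99 in the No Doxy arrays, a difference of 1.08 (SE 0.20, limma adjusted p = 0.0221) or 2.11-fold. Of its 31 probe sets 25 were higher in both Doxy arrays and 1 was lower in both. Leaving out 1 array at a time gave differences from 0.873 to 1.28. Among these fits the DHX38 call was kept only without Doxy replicate 1, and some of the other fits called no gene at all. DHX16, which acts before the first step, had 6.45 and 7.06 with Doxy and 6.18 and 6.18 without (0.57, adjusted p = 0.180). DHX8, which releases the spliced mRNA, differed by 0.14, and DHX15, which takes the spliceosome apart, by -0.45 (adjusted p = 0.223), with 21 of its 25 probe sets lower in both Doxy arrays.

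The 2 Doxy arrays differed from each other in nearly all of these genes in the same direction. Doxy replicate 2 lay above Doxy replicate 1 in 46 of 48 genes (the exceptions were LSM8 and BUD31), against 61.7% of all genes, and by a median of 0.46 against 0.08 for all genes. This was not particular to the core spliceosome: Doxy replicate 2 was the higher one in 77.1% of the genes at or above the median level (median 0.21), in 49 of 50 other major spliceosome proteins (median 0.32), in 12 of 13 SR proteins and in 24 of 24 G2/M genes. Doxy replicate 1 lay below both No Doxy arrays in 24 of 48 genes and above both in 16, where 35.1% and 38.2% of all genes did. Doxy replicate 2 lay below both in 8 and above both in 32, where 31.2% and 45.1% did. With centred arrays Doxy replicate 2 was still above Doxy replicate 1 in 45 of 48, against 35.6% of all genes. On that scale Doxy replicate 1 was below both No Doxy arrays in 26 genes and above both in 16 (41.4% and 32.3% of all genes), and Doxy replicate 2 was below both in 14 and above both in 23 (56.4% and 27.0%). The median difference from the mean of the No Doxy arrays was -0.12 in Doxy replicate 1 and 0.34 in Doxy replicate 2, so the sign of the median of the 48 genes depended on the Doxy array used. In the same arrays the average of 24 genes of G2/M, the phase of entry into mitosis, was 5.80 and 7.10 in Doxy replicates 1 and 2, against 6.91 and 7.32 in No Doxy replicates 1 and 2, and the part of this difference in the values of the spliceosome genes was not tested.

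**Figure D3:**
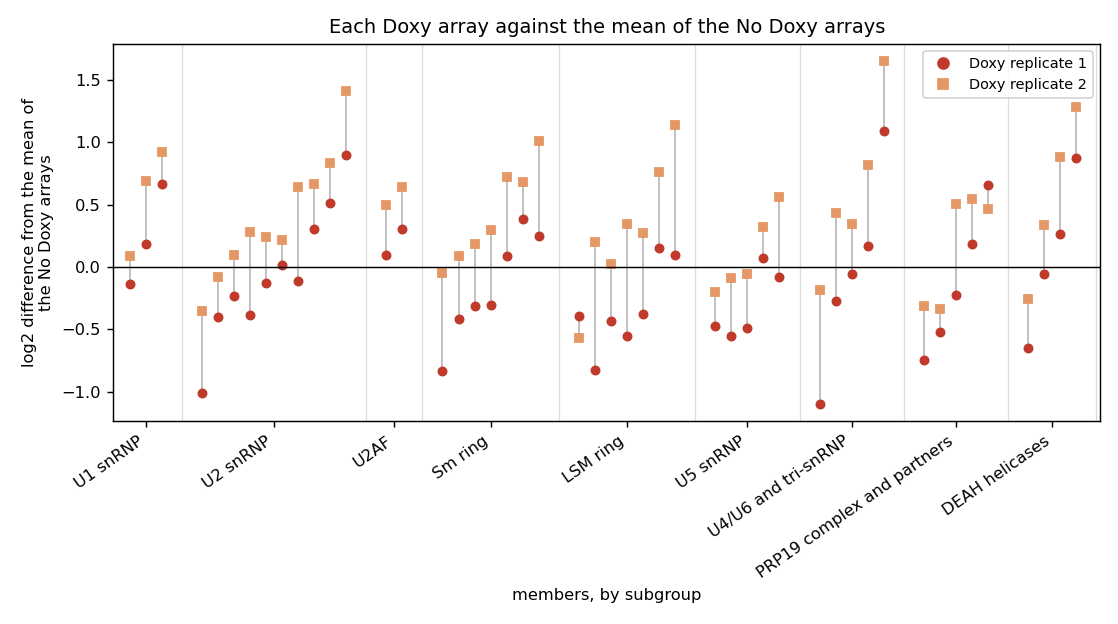
Log2 difference of each Doxy array from the mean of the No Doxy arrays, for each of the 48 genes, grouped by part of the spliceosome and ordered within it by the gene's difference. A grey line joins the arrays of 1 gene, and the square of Doxy replicate 2 lies above the circle of Doxy replicate 1 in 46 of the 48 genes.

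Exons of 1 gene can change unequally, and limma's diffSplice tests this as an interaction of probe set and condition. It called 2 of the 48 members, DHX38 and LSM8, against 2.46% of all genes. Among the 8317 genes at or above the median level, where all members lie, it called 329, so 2 of 48 is near that share. In all, the members had 798 probe sets, from 2 to 49 per gene, of which 206 (25.8%) were higher in both Doxy arrays and 175 (21.9%) lower in both, where 26.4% and 19.0% of all probe sets with 1 symbol were.

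DHX38 passed with an adjusted p of 0.0279 from limma's diffSplice. Its most deviating probe set, 3667948, had 6.35 and 6.78 in Doxy arrays against 7.69 and 6.81 in No Doxy arrays (-0.69), where the median of its other probe sets was 1.17. The largest difference in the gene was that of probe set 3667920, with 6.85 and 7.22 against 4.81 and 3.92 (2.67). Of the 31 probe sets of DHX38, 25 were higher in both Doxy arrays, 3667920 among them. Probe set 3667948 was the 1 lower in both, and 5 overlapped between the groups. In LSM8 (adjusted p = 0.0458), probe set 3020826 had 7.44 and 7.24 with Doxy, against 8.86 and 9.14 without (-1.66). Its neighbour in number, 3020825, had 3.53 and 2.86 against 4.70 and 4.54 (-1.42), while the other 4 probe sets of LSM8 had differences from -0.27 to 0.31. The exon of each of these probe sets was not analysed here. Without Doxy replicate 1 or without Doxy replicate 2, 0 of the 48 members passed diffSplice, but only 0.216% and 0.12% of all genes did so there. LSM8 also did not pass with centred arrays (adjusted p = 0.0784).

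Several members had 1 probe set far from the others without passing the F test. In LSM3 probe set 2611822 had 5.34 and 5.09 in the Doxy arrays, against 1.84 and 1.35 in the No Doxy arrays, a difference of 3.62, where the median of its other 5 was -0.09. LSM3 had an adjusted p of 0.117 by the F test but 0.0184 by Simes' combination of single probe sets, which gives more weight to 1 strong deviation. SNRNP200 did the same in the other direction, with 3.06 and 4.83 against 6.01 and 5.64 in probe set 2565268 (-1.88, Simes adjusted p = 0.0360, F test adjusted p = 0.955). Simes' test called 3 of the 48, these 2 and DHX38, against 5.36% of all genes. LSM3 is 1 of 18 members for which RefSeq lists at least 1 pseudogene under the gene's name (5 for LSM3, 20 each for SNRPC and SNRPG, 11 for SNRPE and 2 for PRPF38A), and near-identical copies can share signal on an array.

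**Figure D4:**
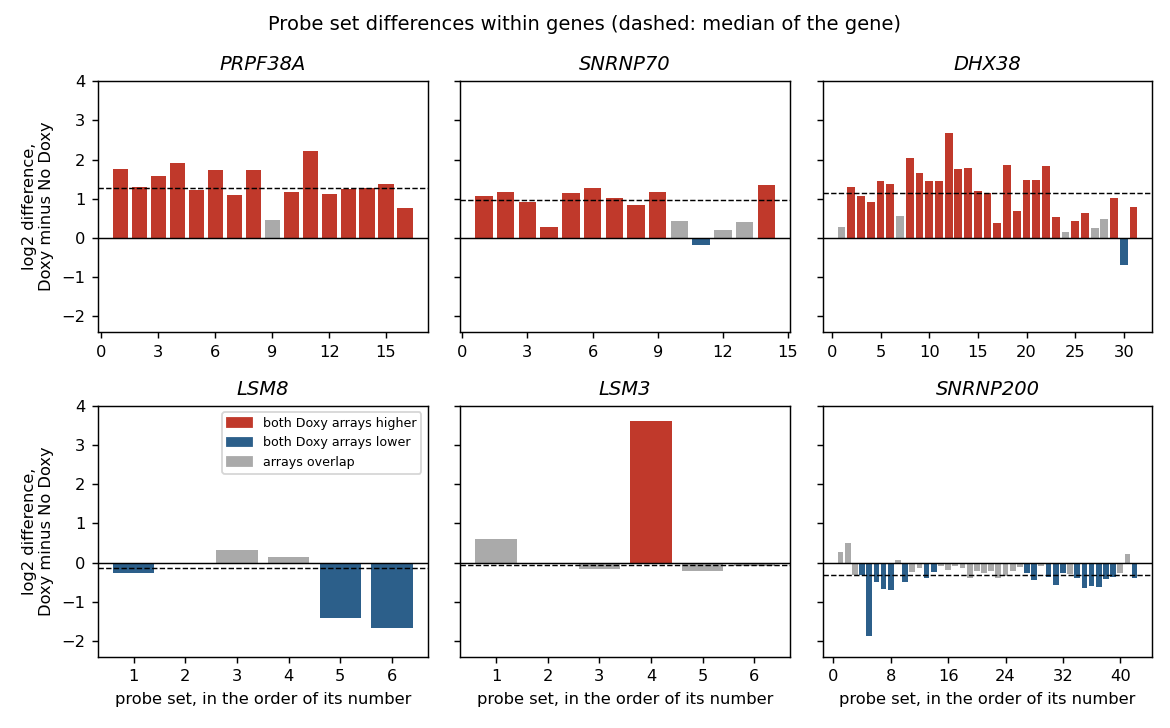
Log2 difference, Doxy minus No Doxy, of every probe set of 6 genes in the order of the probe sets' numbers, with a dashed line at the gene's median. In PRPF38A 15 of 16 bars are red (higher in both Doxy arrays), whereas in LSM8, LSM3 and SNRNP200 1 or 2 probe sets stand far from the rest of the gene.

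Beyond the core, other proteins of the same machine that passed the test on the deposited scale all rose. Of 57 other proteins of the major spliceosome 50 were measured, and 9 rose and 0 fell, with a median difference of 0.25. That is 18.0% higher, against 5.67% of all genes and 9.92% of the genes at or above the median level, and no test of the list was made. The lists beyond the core were read as deposited alone, not with centred arrays. In 22 of the 50 genes both Doxy arrays were higher and in 5 both were lower, against 30.5% and 21.8% of all genes. Those 5 include PPIH (-1.03, limma adjusted p = 0.101) and DHX35 (-0.67, limma adjusted p = 0.0593), which did not pass. SYF2, a partner of the PRP19 complex, had 7.91 and 7.90 in the Doxy arrays, against 6.79 and 6.68 in the No Doxy arrays (1.17, adjusted p = 0.0130). IK, a protein that joins with the tri-snRNP at the same stage as PRPF38A, had 9.40 and 9.58 against 8.48 and 8.41 (1.05, adjusted p = 0.0179), and SRRM1, an SR-related coactivator, had 8.24 and 8.51 against 7.37 and 7.26 (1.06, adjusted p = 0.0194). The others that rose were CWC27, DDX23, SNW1, RBM22, CWC25 and SMU1, the known partner of IK. In the minor spliceosome, which removes a rare class of introns, 2 of 9 proteins rose: SCNM1 with 8.33 and 8.69 against 7.21 and 7.13 (1.34, adjusted p = 0.0129) and SNRNP48 with 8.11 and 8.23 against 6.98 and 6.70 (1.33, adjusted p = 0.0124).

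**Figure D5:**
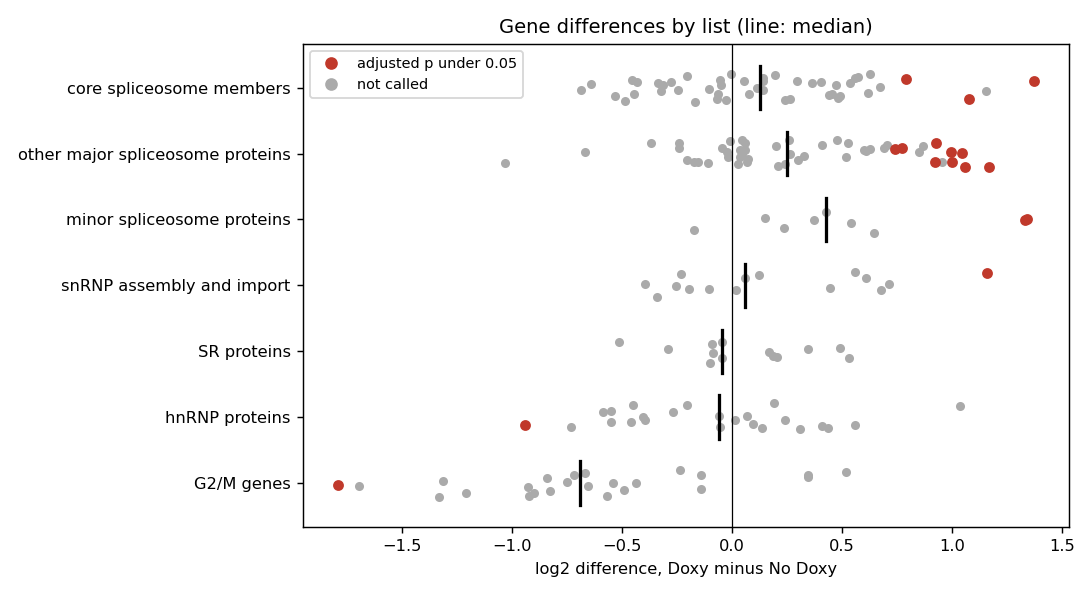
Log2 difference, Doxy minus No Doxy, of each measured gene of the core spliceosome and 6 other lists, with a vertical line at the median of the list and genes at an adjusted p under 0.05 in red. The core genes have 3 red points, the other major spliceosome proteins 9 and the minor spliceosome 2, all above 0, while the G2/M genes have a median of -0.69.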

How the data were processed

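RNA of A2780/SRSF3si2 cells with Doxy (2 arrays) and without (2 arrays) was read on the Affymetrix Human Exon 1.0 ST Array, and groups were taken from the sample labels. The deposited values are log2 signals that the authors made with the RMA method of Affymetrix Expression Console for core exon probe sets, ranging from 0.70 to 14.5. Partek 6.6 is named in the submitters' processing notes. For Expression Console the version, the RMA options and the build were not given in the sources used here.

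Of 287329 probe sets, 261273 are paired with 1 symbol and were used, while 9155 with several symbols and 16901 with none were left out (0 of the members' own). Of 16941 symbols, 14546 were current in RefSeq (GRCh38.p14), 2276 were updated through its synonyms and 119 were kept. A gene value is the mean log2 over at least 2 probe sets. Genes were tested by limma 3.58.1 in R 4.3.3 (2 residual and 5.95 prior degrees of freedom, two-sided) and unequal change of probe sets by its diffSplice. Both were also run on simulated arrays, in which the errors of each gene were drawn separately. Arrays that shift many genes together were therefore not covered by that check. Plots used matplotlib 3.10.9 and Python 3.11.15.

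The members and the other lists were chosen with earlier results of these data known. Named with values for each array were members called by either test, the 2 members with the smallest p in each of the 9 parts, those with the largest difference in each direction, SRSF3, and up to 3 called genes of each other list. For a diffSplice call the most deviating probe set was given. Other probe sets and genes named in the text, among them LSM3, SNRNP200 and the PLRG1 and DHX15 probe set counts, were chosen after their values were seen. Genes of a list that had no value were left out. Alternatives were the median or Tukey's median polish of probe sets, leaving out the dimmest 25% of probe sets or genes below the median level, at least 1 or 5 probe sets, centred arrays, quantile normalization, the methods' t-test and their thresholds (unadjusted p and a fold change over 2), a replicate block, a robust prior with a trend, Simes' test for diffSplice and leaving out each array.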

Additional observations from a re-analysis of the deposited data

How the results depend on the processing

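With 2 arrays a group the number of arrays limits the precision, and leaving out 1 array leaves a lone array that is assumed to vary like the others. As deposited 3 members rose and 0 fell. The count of higher members was 0 with the median of the probe sets, where 0.986% of all genes were called higher. It was also 0 with the methods' t-test, but that test called 0 of all 16634 genes. At its unadjusted threshold 3 members were higher and 2 lower, where 2328 of all 16634 genes passed in either direction. The count was 1 with median polish (PRPF38A), against 3.28% of all genes. It was 6 with the replicate block, which added SF3B5, SNRPA1 and SNRPG. With the block the share of all genes called higher went up to 10.6% (5.67% without it). At the methods' thresholds it was 3 (PRPF38A, DHX38 and SF3B5, without SNRNP70), against 3.02% of all genes. It ran from 0 to 2 when 1 array was left out, with 2 without Doxy replicate 1 (PRPF38A and DHX38) and 0 without any other array, where limma called 0 of all genes without either No Doxy array (3079 and 2571 at an unadjusted p under 0.05). The count of lower members was 3 with centred arrays, where 5.74% of all genes were called lower. It was 1 with quantile normalization (SF3A3), where 3.64% of all genes were. It was 2 with the replicate block (PRPF4 and SF3A3), where 3.96% of all genes were, against 1.7% without it. The members' median was 0.339 without Doxy replicate 1, -0.123 without replicate 2 of the same group, and 0 after quantile normalization. DiffSplice called 1 member with centred arrays (2.3% of all genes) and 1 with quantile normalization (2.81%), DHX38 in both. It called 0 members with the replicate block (1.23% of all genes) and 3 with Simes' test (DHX38, LSM3 and SNRNP200, against 5.36%). The members it called also changed in some fits with 1 array left out. The cause of these changes was not tested. No source says that equal replicate numbers mark a pair. Over genes, the arrays numbered 1 deviated from their group means with a correlation of 0.127. With 2 arrays a group the arrays numbered 2 mirror this value, so it cannot show whether the arrays were paired. Over the 16 alternatives the call was lost in 5 for PRPF38A, 6 for DHX38 and 11 for SNRNP70, always with the difference above 0. These losses include the methods' t-test and the fits without either No Doxy array, where no gene of any kind could keep a call.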

Other observations

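Proteins that bring the snRNPs together or act on the same pre-mRNA were mostly not called. Of 15 genes for snRNP assembly and import that were measured, 1 rose and 0 fell: SNUPN, which carries snRNPs into the nucleus, had 6.58 and 7.01 in the Doxy arrays, against 5.56 and 5.71 in the No Doxy arrays (1.16, adjusted p = 0.0202 from limma). Of 8 other LSM and Sm proteins LSM10, a protein of the U7 snRNP that processes histone mRNA, rose, with 6.17 and 6.58 against 5.35 and 4.76 (1.32, adjusted p = 0.0233). Of 13 SR proteins, a list that holds SRSF3, 0 passed (2 higher and 1 lower at an unadjusted p under 0.05), with a median of -0.04. Of 24 hnRNP proteins measured, HNRNPLL fell, with 6.30 and 6.54 against 7.24 and 7.49 (-0.94, adjusted p = 0.0288), and the median was -0.06. Of 24 G2/M genes PRC1, which bundles the microtubules of the spindle midzone, fell, with 6.26 and 7.31 against 8.33 and 8.82 (-1.79, adjusted p = 0.0231). In these lists the share of all genes that rose was 5.67% and that fell 1.7%, and no list was tested as a set.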
